A study of Mus musculus with 8 samples.

Results

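Hic1, Asb2, Fndc5 and Tgm2 are 4 of the 24421 genes of the deposited count table, and their counts were followed through all 8 libraries of the series, in Rara-deficient cells against their wild-type (WT) cells and in retinoic acid (RA)-treated cells against their untreated cells. They were picked by symbol, as known RA targets or as genes seen to be raised most in the Rara KO libraries of this table, so the values of both comparisons are given as a description, with no test. The label under which they were grouped, strongly raised genes, held for Hic1, Asb2 and Fndc5 in both comparisons and did not hold for Tgm2 in Rara KO cells, as its values show. All 4 were among the 12424 genes that had 0.5 CPM (counts scaled to library size) or more in at least 2 libraries. No Control library reached 0.5 CPM of Hic1, Asb2 or Fndc5, and of the WT pair only WT 2 did, for Hic1 alone, so that these 3 genes entered through the libraries in which they were high.

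The cells were grown from bone marrow of C57BL6 mice with GM-CSF at 20 ng/ml and human TGF-β1 at 10 ng/ml in medium with 10% fetal bovine serum (FBS), a mixture that yields cells resembling Langerhans cells, the dendritic cells of the epidermis. The labels give 3 to 5 days of culture and do not say which samples had regular and which had charcoal-treated serum, while the study's own account of the sequenced cells gives 3 days and charcoal-treated serum for all of them. CD11c+ cells were then taken on magnetic beads, and their polyadenylated RNA was sequenced by strand. The sets were Rara KO (2 libraries, genotype RARa-/- by the labels), with WT 1 and WT 2 as the WT pair of the same experiment, and RA (2 libraries of WT cells given all-trans RA), with the pair of untreated WT libraries named Control. In the mice behind the KO libraries a CD11c-Cre transgene deleted a floxed Rara allele, so deletion was limited to cells in which the CD11c promoter had been active. The methods name C57BL/6, floxed and Cre-carrying mice as WT controls without saying which were sequenced. The labels give the RA dose as 1 nM, and the study's account of the sequenced cells gives another.

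RARα is a nuclear receptor that sits on DNA with its partner RXR. Without a ligand it holds corepressors at its target genes, and all-trans RA exchanges these for coactivators, so that loss of the receptor and addition of its ligand can both be asked to lift repression from a gene. HIC1 is a zinc finger transcriptional repressor whose gene depends on RA in intestinal immune cells of mice. ASB2 is the substrate-binding subunit of a cullin-5 ubiquitin ligase that marks filamins for degradation, and ASB2 was found as an RA-induced gene in human promyelocytic leukaemia cells. FNDC5 is a membrane protein with a fibronectin type III domain, shed from muscle as irisin. Tgm2 encodes transglutaminase 2, which cross-links proteins, takes part in the clearance of dying cells by macrophages and is a long-known RA-induced gene of myeloid cells.

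In the mm10 coordinates of the deposited table, Hic1 lies on chromosome 11 from 75164565 to 75170255 on the minus strand, and Asb2 on chromosome 12 from 103321142 to 103356001 on the minus strand. Fndc5 lies on chromosome 4 from 129137060 to 129144593 on the plus strand, and Tgm2 on chromosome 2 from 158116405 to 158146392 on the minus strand. RARα binds paired hexamers, so the RefSeq promoter windows of the members (250 bases before to 50 after a start, GRCm38.p6) were searched on both strands for the hexamer AGGTCA, for its relative AGTTCA, for a further form GGGTCA and for the form GGTTCA. There were 2 windows of Hic1, 2 of Asb2 and 1 of Fndc5, and none of Tgm2, which was therefore not searched. The 250 bases before the start are shown for 1 window of each gene searched, and capitals mark a hexamer.
Hic1, chr11:75170256-75170505, minus strand: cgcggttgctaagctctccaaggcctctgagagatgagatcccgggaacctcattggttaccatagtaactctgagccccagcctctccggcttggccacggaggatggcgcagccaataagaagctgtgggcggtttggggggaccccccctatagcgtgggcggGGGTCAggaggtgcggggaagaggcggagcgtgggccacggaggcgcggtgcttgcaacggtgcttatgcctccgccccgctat
Asb2, chr12:103356002-103356251, minus strand: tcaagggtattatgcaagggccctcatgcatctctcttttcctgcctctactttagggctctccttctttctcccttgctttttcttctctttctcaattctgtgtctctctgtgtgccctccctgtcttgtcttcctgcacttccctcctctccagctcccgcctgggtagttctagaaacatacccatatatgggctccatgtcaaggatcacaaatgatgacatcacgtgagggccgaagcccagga
Fndc5, chr4:129136749-129136998, plus strand: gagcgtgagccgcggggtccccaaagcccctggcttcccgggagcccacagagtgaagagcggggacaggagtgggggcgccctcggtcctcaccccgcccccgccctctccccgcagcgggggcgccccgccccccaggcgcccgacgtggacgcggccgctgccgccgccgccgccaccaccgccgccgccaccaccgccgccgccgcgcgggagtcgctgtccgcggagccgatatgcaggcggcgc
Each Hic1 window held 1 hexamer, GGGTCA, and the windows of Asb2 and Fndc5 held none, while 43.7% of all 32851 windows held at least 1. None of the 5 windows held 2 hexamers in the same orientation with 2 or 5 bases between them, an arrangement present in 0.365% of all windows. The Fndc5 window was made of G and C to 82.3% with 48 CpG dinucleotides, and the Hic1 windows to 64.7% and 77.3% with 20 and 29. The Asb2 windows had 53.0% and 56.7% G and C with 6 and 5 CpG, near the medians over all windows of 52.7% and 7.

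The 8 libraries held 26325627 to 76077813 counted read pairs. Rara, counted over all its exons and so not a measure of the floxed exon alone, had 77.6 ± 22.0 CPM in KO cells and 116 ± 16.8 CPM in WT 1 and WT 2 (SD, n = 2 each), a log2 fold change of -0.57 that missed the threshold (adjusted p = 0.0521, edgeR quasi-likelihood test). It had 48.2 ± 1.28 CPM with RA and 119 ± 6.72 CPM in Control (SD, n = 2 each), a log2 fold change of -1.31 (adjusted p = 0.00130, same edgeR test). Reads in 3' UTRs made up 46.5 to 48.5% of uniquely mapped reads in KO and 35.8 to 39.0% in WT libraries, and 32.0 to 34.0% in RA and 30.8 to 32.1% in Control libraries. The RNA of Xist, a gene that female cells use to silence an X chromosome, reached 0.259 to 1.08 CPM in KO libraries, against 91.1 to 253 CPM in WT 1 and WT 2, with 0 or 1 read pairs in each RA and Control library, so a difference in the sex of the mice and the KO cannot be told apart. Nor can sex and experiment be told apart between WT 1 and WT 2 and Control, or where these pairs are pooled. Cd207, the gene of langerin that defines Langerhans cells, had 0.541 and 0.259 CPM in KO libraries, against 18.5 and 19.8 CPM in WT 1 and WT 2. It had 0.0401 and 0.0377 CPM in RA libraries, against 70.6 and 97.7 CPM in Control libraries, so the marker of the labelled cell type was nearly absent from the KO and RA libraries.

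Hic1 was nearly silent in untreated WT cells and was the most raised of the 4 genes in both settings. In KO libraries it had 24.4 and 26.8 CPM, against 0.229 and 0.573 CPM in WT 1 and WT 2. In RA libraries it had 2.12 and 6.86 CPM, against 0.0395 and 0 CPM in Control libraries, where 0 of that library's counts allow a level of up to 0.0571 CPM (3 counts). Every KO library was thus above every RA library, every RA library above WT 1 and WT 2, and these above both Control libraries. The fitted log2 fold change was 5.90 in KO cells (standard error 0.65, n = 2 against 2) and 7.68 with RA (standard error 0.98, n = 2 against 2), in each case the value at place 3 from the top among the 12424 genes. The RA value rests on 2 counts in the Control pair. The ratio of summed counts per library size was 57.8 in KO over WT cells (95% exact Poisson interval 43.9 to 77.5) and 236 in RA over Control cells (64.9 to 1950, from 470 against 2 counts). These intervals cover counting error only.

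Asb2 showed the same order at lower levels. It had 3.53 and 10.7 CPM in KO libraries, against 0.274 and 0.200 CPM in WT 1 and WT 2. It had 0.501 and 1.83 CPM in RA libraries, against 0.0988 and 0.0761 CPM in Control libraries. The pairs did not overlap in either comparison, and the lower KO library was still above the higher RA library. The log2 fold change was 4.93 in KO cells (standard error 0.78) and 3.70 with RA (standard error 0.89), at places 5 and 30 from the top. Summed counts gave a ratio of 33.3 in KO over WT cells (95% exact Poisson interval 22.6 to 51.2) and of 13.6 in RA over Control cells (6.93 to 30.4, from 122 against 9 counts). Mir3472, Mir1906-1 and Mir1906-2 overlap Asb2 on the opposite strand, as Mir5098 does Hic1, and the counting used strand.

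Fndc5 had 3.37 and 8.11 CPM in KO libraries, against 0.0457 and 0.267 CPM in WT 1 and WT 2. In RA libraries it had 0.301 and 0.603 CPM, against 0 and 0.0190 CPM in Control libraries, where 0 counts allow up to 0.0593 CPM. Its levels with RA were therefore low, and the lower RA library (15 counts, 95% exact Poisson interval 0.168 to 0.496 CPM) was within counting error of WT 2 (20 counts, 0.163 to 0.412 CPM). The log2 fold change was 5.04 in KO cells (standard error 0.75) and 5.21 with RA (standard error 1.27), at places 4 and 12 from the top. The second value is set against 1 count in the Control pair, and the ratio of summed counts was 47.1 in RA over Control cells, with a 95% exact Poisson interval of 8.05 to 1900. In KO over WT cells that ratio was 32.6 (21.1 to 52.7, from 331 against 22 counts).

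Tgm2 behaved differently. It was well expressed in every library, with 35.6 and 34.7 CPM in KO libraries, against 18.8 and 37.6 CPM in WT 1 and WT 2, so the KO libraries lay inside the WT range. In RA libraries it had 40.4 and 31.7 CPM, against 16.2 and 22.9 CPM in Control libraries, with no overlap. The log2 fold change was 0.31 in KO cells (standard error 0.30) and 0.88 with RA (standard error 0.31), at places 3115 and 747 from the top. The KO value was -0.15 without WT replicate 1 and 0.90 without WT replicate 2, so 1 WT library set its direction. The ratio of summed counts was 1.14 in KO over WT cells (95% exact Poisson interval 1.08 to 1.21) as to counting error, and WT 2 alone had 2.00 times the level of WT 1.

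**Figure D1:**
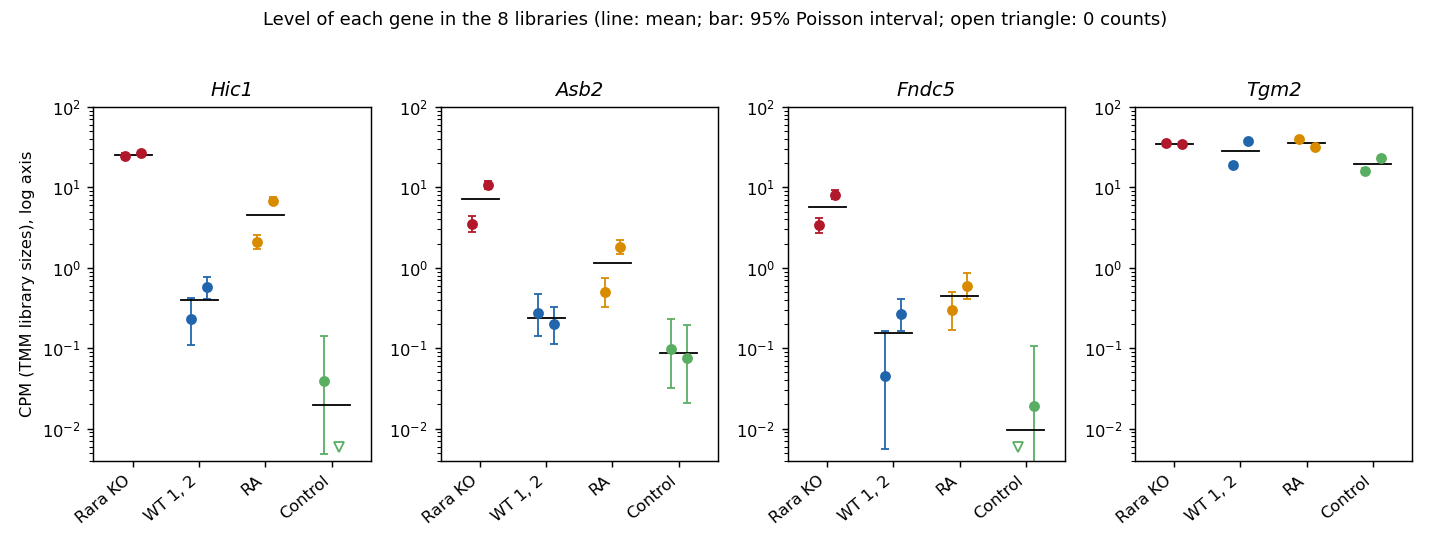
Level of Hic1, Asb2, Fndc5 and Tgm2 in each of the 8 libraries, in CPM on a log axis. Points are libraries, bars their 95% exact Poisson intervals, black lines the mean of each pair and open triangles libraries with 0 counts. Hic1, Asb2 and Fndc5 descend from KO through RA and WT to Control, though in each a WT bar overlaps a Control bar. Their KO means are 25.6, 7.13 and 5.74 CPM, whereas Tgm2 stays between 16.2 and 40.4 CPM.

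Set against the whole table, KO libraries did not overlap WT libraries and were higher in 32.6% of tested genes, and RA libraries in the same way against Control libraries in 36.8%, so that lack of overlap by itself (3 of the 4 genes in KO cells, 4 of the 4 with RA) was common here. At an adjusted p under 0.05 the edgeR test called 26.9% of genes in KO cells (13.6% higher, 13.3% lower) and 34.5% with RA (15.2% higher, 19.3% lower). The full order of KO above RA above WT above Control, library by library, was met by Hic1, Asb2 and Fndc5 and by 260 of 12424 genes in all (2.09%). Its last step, WT above Control, was not clear of counting error in Hic1, Asb2 or Fndc5. Between genes, levels are compared per kilobase of exon, as RPKM recomputed from the counts. In KO cells Tgm2 was highest at 9.90 ± 0.165 RPKM, before Hic1 at 5.70 ± 0.384, Asb2 at 2.65 ± 1.89 and Fndc5 at 2.12 ± 1.24 RPKM (SD, n = 2 each). Asb2 and Fndc5 did not differ beyond their spread between libraries, which they share. Within libraries Asb2 and Fndc5 had 1.31 and 1.25 RPKM in KO replicate 1 and 3.99 and 3.00 RPKM in KO replicate 2. With RA, Tgm2 had 10.2 ± 1.72 RPKM, Hic1 1.00 ± 0.745, Asb2 0.433 ± 0.349 and Fndc5 0.167 ± 0.0791 RPKM (SD, n = 2 each). In the KO libraries Hic1 stood above 39.8 and 41.1% of tested genes by RPKM, and in the RA libraries above 11.2 and 20.2%.

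Whether RA and loss of RARα raised the genes alike depended on what the levels were set against. In absolute terms Hic1, Asb2 and Fndc5 did not reach the same level: the mean CPM in KO cells was 5.70 times that with RA for Hic1, 6.12 times for Asb2 and 12.7 times for Fndc5. Tgm2 did, at 35.1 ± 0.586 CPM in KO and 36.0 ± 6.11 CPM with RA (SD, n = 2 each). KO and RA libraries belong to different experiments, so in this comparison of levels the effect and the experiment cannot be told apart. Relative to the WT pair of the same experiment, the RA effect minus the KO effect on the log2 scale was 1.77 for Hic1, -1.23 for Asb2, 0.18 for Fndc5 and 0.57 for Tgm2. The standard errors of these differences, from those of the 2 effects, were 1.18, 1.18, 1.47 and 0.43, and the values for Hic1 and Fndc5 rest on 2 and 1 counts in the Control pair. Over all genes, the test of this difference called 6.09%, and it was not applied to these 4. With all 4 WT libraries as a common control, the log2 fold changes were 6.79 in KO cells and 4.28 with RA for Hic1, 5.44 and 2.83 for Asb2, 5.89 and 2.24 for Fndc5, and 0.56 and 0.59 for Tgm2. The sign of the difference for Hic1 and Fndc5 was then the opposite one.

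**Figure D2:**
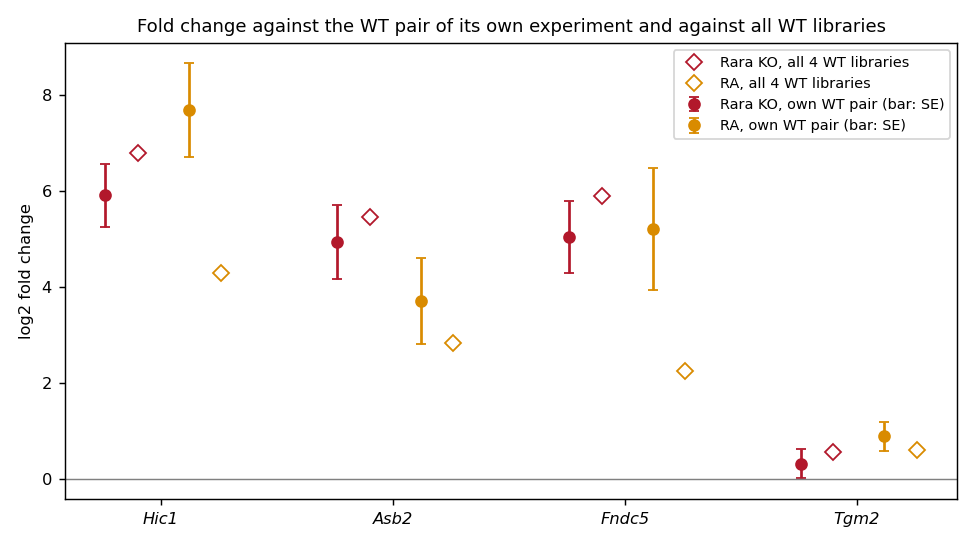
Log2 fold change of each gene in KO and RA cells. Filled circles are set against the WT pair of the same experiment, with the standard error as a bar, and open diamonds against all 4 WT libraries. For Hic1 the RA value is the higher one against its own pair (7.68 beside 5.90) and the lower one against all WT libraries (4.28 beside 6.79).

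Both readings differ in the untreated WT level they use. The genes were chosen in part by being higher in KO than in WT 1 and WT 2, so the WT levels entered the choice and the difference between the untreated pairs is a description too. Hic1 averaged 0.0198 ± 0.0279 CPM in Control and 0.401 ± 0.244 CPM in WT 1 and WT 2 (SD, n = 2 each), a log2 difference of -4.28 that lay between -7.33 and -3.34 when a library was left out. Fndc5 averaged 0.00951 ± 0.0135 CPM in Control and 0.156 ± 0.156 CPM in WT 1 and WT 2, with a log2 difference of -3.83. Asb2 averaged 0.0874 ± 0.0160 CPM in Control and 0.237 ± 0.0527 CPM in WT 1 and WT 2, with a log2 difference of -1.38. In these 3 genes every Control library was below both WT libraries, at 0 to 5 counts a library. The WT counts were low too, with 10 counts of Hic1 and 2 of Fndc5 in WT 1 and 15 of Asb2 in WT 2. In each of these genes the 95% exact Poisson interval of that WT library overlapped that of a Control library. The order of single libraries was therefore not clear of counting error. Tgm2 averaged 19.5 ± 4.80 CPM in Control and 28.2 ± 13.3 CPM in WT 1 and WT 2, with a log2 difference of -0.53, and its pairs overlapped. Over all genes this comparison called 21.6%. The untreated pairs also differed in Xist, so sex and experiment cannot be told apart in it.

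The 2 libraries of a set differed widely for several of these genes, and not in every set. In RA libraries the log2 CPM of Hic1 differed by 1.67 between replicates, a gap larger than that of 99.3% of tested genes, and that of Asb2 by 1.78, larger than for 99.5%. In KO libraries Asb2 differed by 1.59 (larger than for 96.6%) and Fndc5 by 1.26 (94.9%), while the gaps of Hic1 and Tgm2 were larger than those of only 37.6% and 10.3% of genes. In WT 1 and WT 2 the gap was 1.81 for Fndc5 (99.5%), 1.18 for Hic1 (98.2%) and 1.00 for Tgm2 (97.5%), and in Control that of Hic1 was larger than for 97.8%. Genes of all levels enter these shares, and low counts vary more. Hic1, Asb2 and Fndc5 were all higher in the same library of the RA pair, and Asb2 and Fndc5 in the same library of the KO pair.

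**Figure D3:**
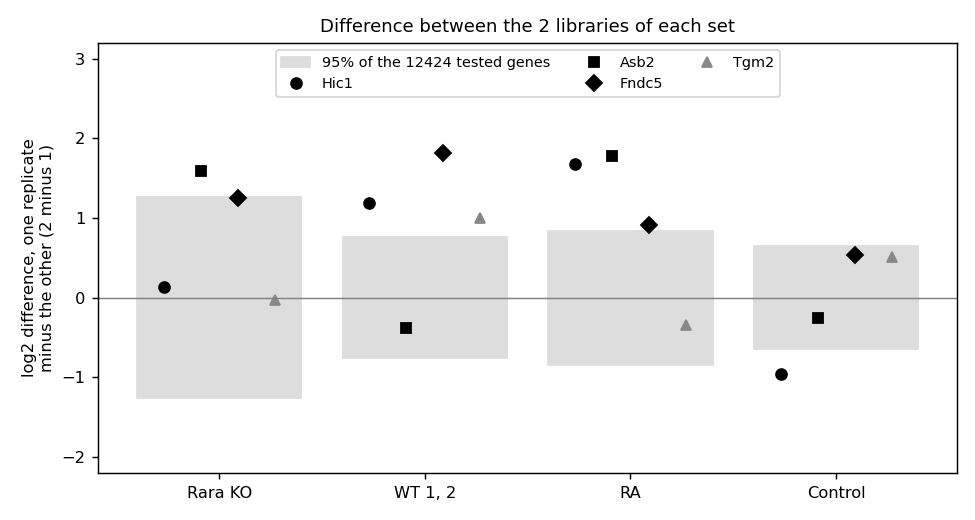
Difference in log2 CPM (prior count 2) between the 2 libraries of each set, for Hic1, Asb2, Fndc5 and Tgm2. Grey bands hold 95% of the 12424 tested genes by the size of the difference. Above the band lie Hic1, Asb2 and Fndc5 in RA, at 1.67, 1.78 and 0.91, Asb2 in KO, and Hic1, Fndc5 and Tgm2 in WT 1 and WT 2, while Hic1 lies below it in Control.

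Other genes with a known RA response did not move as a block. Of a list of 24 such genes, 14 were tested. In KO cells 3 rose and 4 fell (list median -0.19 on the log2 scale, all tested genes 0.0028), against 13.6% and 13.3% of all genes. With RA 3 rose and 5 fell (list median -0.32, all tested genes -0.0066), against 15.2% and 19.3% of all genes. Rarb, Cyp26a1, Cyp26c1, Stra6, Stra8 and Crabp2, RA targets of many cell types, were among those that had too few counts to be tested.

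Cd38, an NAD-consuming ectoenzyme induced by RA in human myeloid cells, came closest to the pattern. It had 34.7 and 46.0 CPM in KO libraries, against 4.89 and 3.35 CPM in WT 1 and WT 2 (log2 fold change 3.31, adjusted p = 0.000802, edgeR quasi-likelihood test with n = 2 each). It had 74.8 and 68.5 CPM in RA libraries, against 2.57 and 3.63 CPM in Control libraries (log2 fold change 4.53). Unlike Hic1, Asb2 and Fndc5, Cd38 was higher in RA than in KO cells. Dhrs3, a retinal reductase that lowers RA synthesis, rose by 1.20 in KO cells and by 3.55 with RA on the log2 scale. Its end levels lay within their spread, at 95.6 ± 6.25 CPM in KO and 100.1 ± 28.4 CPM with RA, from untreated levels of 41.5 ± 3.83 CPM in WT 1 and WT 2 and 8.54 ± 1.88 CPM in Control (SD, n = 2 each). Between the untreated pairs Dhrs3 was lower in Control than in WT 1 and WT 2 (log2 difference -2.28, adjusted p = 0.00295, edgeR), but the list went both ways there. Of its 14 tested genes, 4 were called lower and 3 higher in Control, beside 21.6% of all genes called in either direction. The 3 higher ones were Ccr9 (2.60), Cyp26b1 (2.32) and Nrip1 (1.58). Rai14 rose by 0.64 in KO cells and by 0.66 with RA. Pram1, an adaptor of myeloid cells, fell by 0.88 and by 2.02, and Cyp26b1, an RA-degrading enzyme, fell by 3.03 in KO cells (adjusted p = 0.0232, edgeR) and by 5.64 with RA. The size of the Cyp26b1 changes rests on few counts, 0 and 4 in KO libraries and 2 and 4 in RA libraries.

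**Figure D4:**
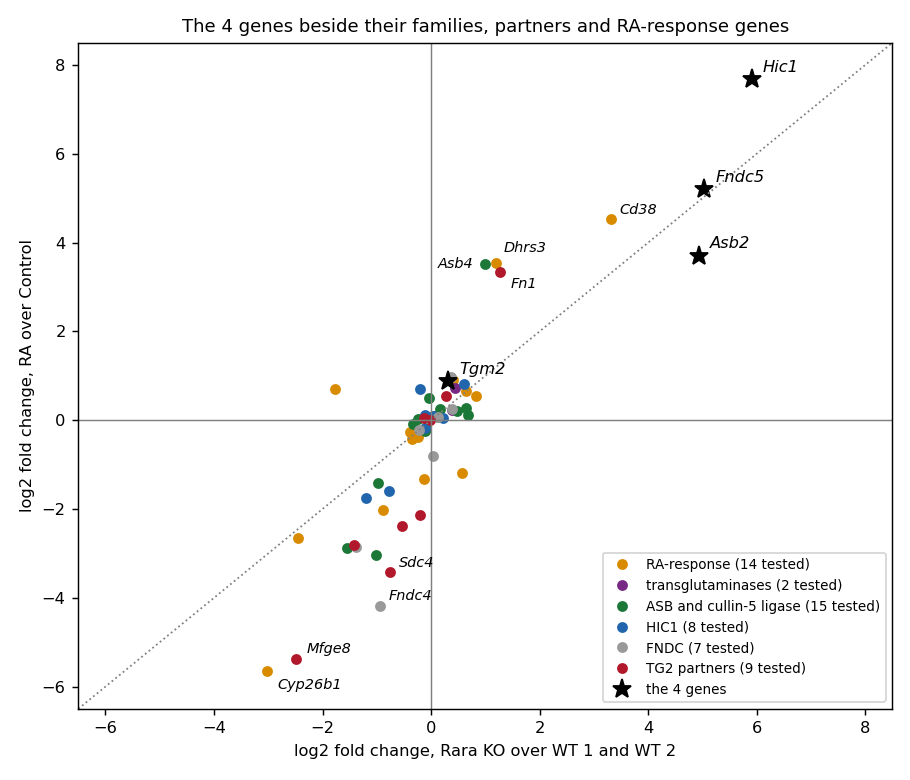
Log2 fold change in KO cells over WT 1 and WT 2 (horizontal axis) and with RA over Control (vertical axis). Each point is a tested gene of the RA-response, family and partner lists, stars are Hic1, Asb2, Fndc5 and Tgm2, and the dotted line marks equal values. Hic1, Fndc5 and Asb2 lie apart at the upper right, with Cd38 the nearest list gene at 3.31 and 4.53, and Tgm2 lies near the origin.

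Genes of the ligase and substrates around ASB2 went in both directions. Of 24 genes of the ASB family, cullin-5 ligase and filamins, 15 were tested, of which 3 rose and 2 fell in KO cells (list median -0.04), and 2 rose and 3 fell with RA (list median 0.08), beside 26.9% of all genes called in KO cells and 34.5% with RA. In KO cells the risers were the shared ligase subunits Tceb1 (0.68), Tceb2 (0.64) and Rnf7 (0.47). Flna, the filamin of most leukocytes, rose by 0.50 with RA, where it had 1160 and 1109 CPM against 816 and 787 CPM in Control. Asb4 rose by 3.51 and Asb11 fell by 3.04 with RA.

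Among genes listed for HIC1, Ccnd1, which encodes cyclin D1, fell by 0.78 in KO cells and by 1.59 with RA. It was the only gene called in KO cells among the 8 tested of 10 on that list (median -0.11), beside 26.9% of all genes. With RA, Hic2, the close relative of Hic1, rose by 0.69 and Epha2 fell by 1.76 (list median 0.07), so that 3 of 8 were called beside 34.5% of all genes. The corepressor genes Ctbp1 and Ctbp2 were at 0.21 and -0.11 in KO cells and at 0.05 and -0.18 with RA, none of which passed the test.

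Around FNDC5, 7 of 12 listed genes were tested, of which 3 were called in KO cells and 4 with RA, beside 26.9% and 34.5% of all genes. In KO cells Esrra (0.38) and Itgb5 (0.37), which encodes a subunit of an irisin receptor, rose and Fndc7 fell by 1.38 (list median 0.04). With RA Itgb5 rose by 0.97, while Fndc4 fell by 4.17, Fndc7 by 2.85 and Itgav by 0.81 (list median -0.22). The sizes for Fndc4 and Fndc7 rest on few counts. Fndc4 had 4 and 11 counts in RA libraries, and Fndc7 had 8 and 7 there and 9 and 12 in KO libraries. Ppargc1a, which drives Fndc5 in muscle, had no more than 0.0951 CPM in any library.

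Of 8 other transglutaminase genes listed, 7 were among the counted genes, and Epb42 was not found under that symbol. Only Tgm1 and F13a1 had enough counts to be tested (list median 0.42 in KO cells and 0.48 with RA), and of these Tgm1 rose by 0.72 with RA. Of 10 partners of transglutaminase 2 at the cell surface and in the matrix, 9 were tested, of which 1 rose and 3 fell in KO cells (list median -0.21), and 1 rose and 5 fell with RA (list median -2.13), beside 13.6% and 13.3% of all genes in KO cells and 15.2% and 19.3% with RA. The riser in both was Fn1, the fibronectin gene, with 351 ± 4.77 CPM in KO and 146 ± 33.3 CPM in WT 1 and WT 2, and with 1690 ± 62.4 CPM with RA and 167 ± 30.8 CPM in Control (SD, n = 2 each). Mfge8, a bridge to dying cells, fell in both, with log2 fold changes of -2.49 in KO cells and -5.37 with RA. So did Adgrg1, an adhesion receptor that binds transglutaminase 2 (-1.42 and -2.80), and Sdc4, a heparan sulfate carrier (-0.77 and -3.42).

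The genes beside each member on the chromosome had no common direction. Of the 8 nearest tested neighbours, 1 rose and 1 fell in KO cells and 0 passed the test with RA, beside 26.9% and 34.5% of all genes. Ovca2, 5688 bases from Hic1, rose by 0.57 in KO cells (adjusted p = 0.0362, edgeR), and S100pbp, 6232 bases from Fndc5, fell by 1.71 (adjusted p = 0.0164, edgeR). Smg6, which ends 117 bases from Hic1, was at -0.07 in KO cells and 0.15 with RA, and Otub2, 20893 bases from Asb2, at -0.39 and -0.11. Rprd1b and Lbp beside Tgm2, Rnf19b beside Fndc5 and Btbd7 beside Asb2 had values between -0.79 and 0.59 in either comparison, none past the test. With RA, 1 of the 8, Btbd7, had an unadjusted p under 0.05 in edgeR (0.0358, log2 fold change -0.79). It was called lower by DESeq2, in a fit of the compared libraries alone and without either KO library, and Smg6 was called higher with the trend on exon length removed (0.45, adjusted p = 0.0182, edgeR).

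Over the 8 libraries, the log2 CPM of Hic1, Asb2 and Fndc5 followed one another closely, with Pearson r between 0.956 and 0.959 for the 3 pairs, and Tgm2 followed them less, with r between 0.568 and 0.724. The 8 points are 4 sets of 2 libraries and share their depth and experiment, so these values are a description. The genes most like Hic1 were Qpct, which encodes glutaminyl cyclase (r = 0.989), Paqr7, 0610011F06Rik, Parp16 and Dhrs4. Those most like Asb2 were Atg3 of the autophagy conjugation system (r = 0.982), Slc2a6, Pilrb1, Pilra and Dhrs4. Those most like Fndc5 were Cd200r3, a CD200 receptor family member of mouse mast cells and basophils (r = 0.990), Ctu1, Rps10, Hfe and Zeb2os. The match is in shape and not in size: Qpct averaged 301 CPM in KO and 91.5 CPM in WT 1 and WT 2, and 166 CPM with RA and 51.4 CPM in Control. At r above 0.9 there were 539 other genes for Hic1, 288 for Asb2 and 325 for Fndc5, against 8 for Tgm2, whose nearest were Zfp2 (r = 0.926), Reps2, Hsf4, Itgb2 and the macrophage scavenger receptor gene Marco.

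Markers of other cells moved with the members in part. In bulk RNA, fewer cells of a type and less RNA per cell cannot be told apart. The 6 mast cell, basophil and eosinophil markers summed to 141 to 213 CPM in KO and 52.8 to 77.0 CPM in WT libraries, and to 46.0 to 78.9 CPM in RA and 20.3 to 33.1 CPM in Control libraries. Of these 6, 2 were called higher in KO cells, beside 13.6% of all genes. With RA 1 was called higher and 1 lower, beside 15.2% and 19.3% of all genes. Siglecf, a lectin of eosinophils and some macrophages, was the 1 of these 6 called higher in both, with 95.6 and 84.0 CPM in KO libraries, against 29.4 and 41.9 CPM in WT 1 and WT 2, and with 44.9 and 76.9 CPM in RA libraries, against 18.2 and 24.4 CPM in Control libraries. The eosinophil granule genes Prg2 and Epx had 46.5 and 69.2 CPM in KO replicate 1 and 25.1 and 30.2 CPM in KO replicate 2, where Asb2 and Fndc5 were higher. In WT 1 and WT 2 Prg2 had 8.78 and 10.3 CPM and Epx 11.4 and 22.6 CPM, below both KO libraries as Hic1, Asb2 and Fndc5 were. In RA libraries Prg2 reached at most 0.735 and Epx 0.377 CPM, against 2.47 and 2.38 CPM at most in Control libraries. Siglecf, Prg2 and Epx made up most of the sums. The mast cell and basophil genes Cpa3, Mcpt8 and Ms4a2 reached at most 2.36 CPM in any library and did not rise with the members. Cpa3 and Mcpt8 were lower in both KO libraries than in WT 1 and WT 2, where Ms4a2 overlapped. All of them were lower in RA than in Control libraries. The part of these cells in the result was not tested.

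The 4 T cell markers summed to 0.357 to 1.12 CPM in KO and 1.27 to 1.44 CPM in WT libraries, and to 0.113 to 0.140 CPM in RA and 0.438 to 0.672 CPM in Control libraries. Within each comparison they were lower where Hic1 and Asb2 were higher, but the KO sums were above the RA sums, as Hic1 and Asb2 were. Of the 6 skeletal muscle markers Myod1 was at 0 counts in every library, and their sum was 2.20 to 2.41 CPM in KO and 1.19 to 1.33 CPM in WT libraries, and 0.541 to 0.622 CPM in RA and 0.266 to 0.395 CPM in Control libraries, most of it Ckm. The 7 stromal markers summed to 9.48 to 10.6 CPM in KO and 8.52 to 8.83 CPM in WT libraries, and to 0.848 to 1.26 CPM in RA and 2.59 to 4.51 CPM in Control libraries. The 8 macrophage markers summed to 1359 to 1811 CPM in KO and 1368 to 1651 CPM in WT libraries, and to 1214 to 1223 CPM in RA and 1102 to 1373 CPM in Control libraries. In KO cells 2 of the 8 were called higher and 1 lower, beside 13.6% and 13.3% of all genes. With RA 2 were called higher and 1 lower, beside 15.2% and 19.3% of all genes. Of the 8, Fcgr1, an Fc receptor gene, was called higher in both, with 94.3 and 151 CPM in KO libraries, against 53.8 and 53.9 CPM in WT 1 and WT 2, and with 78.2 and 127 CPM in RA libraries, against 21.4 and 29.9 CPM in Control libraries. Mrc1 was also higher in each KO and RA library than in its WT pair. Adgre1 went the other way, with 480 and 586 CPM in KO libraries, against 735 and 865 CPM in WT 1 and WT 2. It had 264 and 356 CPM in RA libraries, against 505 and 641 CPM in Control libraries. The remaining macrophage markers did not separate in both comparisons. Neutrophil, B cell and endothelial sums overlapped between KO and WT libraries, at 710 to 2514 beside 546 to 2322 CPM, 5.22 to 10.0 beside 3.63 to 11.2 CPM and 48.9 to 56.3 beside 48.4 to 101 CPM. With RA the neutrophil sum was lower, at 162 to 199 CPM beside 804 to 1116 CPM in Control, the B cell sum higher, at 2.66 to 3.01 beside 1.11 to 1.35 CPM, and the endothelial sums overlapped, at 40.5 to 68.1 beside 50.4 to 74.1 CPM. The part of these cells in the result was not tested either. Of the 6 Langerhans and dendritic cell markers 4 fell in KO cells and 6 with RA, led by Cd207, beside 13.3% and 19.3% of all genes.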

How the data were processed

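RNA of 8 libraries was analysed: 2 Rara KO, 2 RA and 4 WT, of which 2 are columns named Control, whose names do not say which is WT 3 and which WT 4. They entered the WT group as a pair. The members and gene lists were chosen with earlier results of these data known. Read pairs were aligned by the authors with STAR to mm10 and assigned to RefSeq genes by strand with featureCounts, and these counts were deposited without normalization. Versions were not given in the sources used here. RPKM deposited by the authors, per kilobase of exon, was not printed but recomputed from counts and exon lengths, and 2 such columns, of the Control libraries, were left out. The mapping summary deposited by the authors gave the other read shares. The authors' fold changes, p-values and FDR were not used. The sample labels give RA at 1 nM, within the range in the methods of the study, whose account of the sequenced cells gives 10 nM.

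Counts were fitted in R 4.3.3 with edgeR 4.0.16 (TMM, glmQLFit, glmQLFTest, Benjamini-Hochberg adjustment) on all 8 libraries as 4 sets, each effect against the WT pair of its own experiment, for the 12424 genes that reached 0.5 CPM in 2 or more libraries. A gene other than the members was called at an adjusted p under 0.05, and "rose" and "fell" refer to such calls. Standard errors are the fold change divided by the root of the F statistic, and those of a difference of effects combine both. They can be too small for few counts. CPM uses TMM library sizes, log2 CPM a prior count of 2. Poisson intervals and the limit of 3 counts behind a 0 cover counting error only, at depths of 26325627 to 76077813 pairs. The fit was also run on simulated counts with known changes, and the outcome is not given here. The study calls the samples of a group independent without saying whether they came from separate mice or cultures, so p-values measure the spread between libraries, which may be technical. The test planned for the members between Control and WT libraries is not reported, as WT levels had entered their choice. Named were the members, Rara, their nearest tested neighbours, up to 4 called genes with the smallest p per list and comparison, and the 5 genes most like each member. Some list members are not reported here by name. Alternatives were DESeq2 1.42.0, RLE and total-count scaling, no filter, pooled WT libraries, fits of the compared libraries alone, a replicate block, removal of a trend on exon length, a prior count of 2, an adjusted p under 0.01 and each library left out.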

Additional observations from a re-analysis of the deposited data

Results flagged for a closer look

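Smg6, the neighbour of Hic1, stood out within the 4 WT libraries, where WT 1 had 22.6 CPM and the other 3 had 28.1 to 29.2 CPM, a gap of 0.832 of the whole range. It was the only one of 38 genes examined this way, and chance alone marks about 1 gene in 20.

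For 11 genes of the lists the RA effect and the KO effect differed at an adjusted p under 0.05 by edgeR's test of the difference itself, which called 6.09% of all tested genes. The RA effect minus the KO effect was positive for Nrip1 (2.48), Dhrs3 (2.35) and Fn1 (2.07) on the log2 scale. It was negative for Fndc4 (-3.22), Mfge8 (-2.88), Sdc4 (-2.66), Asb11 (-2.02), Adgrg1 (-1.38), Rarg (-1.18), Pram1 (-1.14) and Itgav (-0.85). Nrip1 was at -1.78 in KO cells, a called change, and at 0.71 with RA, which missed the threshold (adjusted p = 0.121, edgeR), and Itgav was at 0.04 in KO cells. In the other 9 genes both effects had the same sign and the RA effect was the larger one.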

How the results depend on the processing

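With the WT libraries pooled, the log2 fold change of Hic1 was 6.79 in KO cells and 4.28 with RA, that of Fndc5 with RA was 2.24, and the RA minus KO difference was -2.51 for Hic1, -2.61 for Asb2, -3.66 for Fndc5 and 0.036 for Tgm2. The signs for Hic1 and Fndc5 were then the opposite of those within experiments, as the control levels differ. With a prior count of 2, Hic1 with RA was 6.21 and Fndc5 with RA 3.26, the difference was 0.42 for Hic1 and -1.50 for Fndc5, and Control minus WT was -2.92 for Hic1, -1.08 for Asb2 and -2.05 for Fndc5. Leaving out each library in turn gave 5.43 to 6.79 for Hic1, 3.87 to 5.47 for Asb2, 4.21 to 6.89 for Fndc5 and -0.15 to 0.90 for Tgm2 in KO cells, and 6.59 to 10.73 for Hic1, 2.49 to 4.35 for Asb2 and 4.40 to 7.41 for Fndc5 with RA (Tgm2 0.65 to 1.16). The RA minus KO difference ran from 0.69 to 4.82 for Hic1, -2.45 to -0.17 for Asb2, -1.71 to 2.37 for Fndc5 and -0.022 to 1.03 for Tgm2, so its sign for Fndc5 and Tgm2 rests on single libraries. Control minus WT ran from -7.33 to -3.34 for Hic1, -6.03 to -1.95 for Fndc5 and -0.96 to 0.059 for Tgm2. In that comparison Hic1 was at -4.22 with the replicate block and -4.43 with the trend on exon length removed, and Fndc5 at -4.11 by DESeq2 and -3.50 with the block. For the setting of an adjusted p under 0.01, Hic1 remained at its main value of -4.28, because a threshold does not alter a fold change. None of these values stands for a call, as the test of Control against WT is not reported for the members.

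The genes called in KO cells numbered 3346 (1688 higher, 1658 lower), 2177 from the compared libraries alone, 1166 at an adjusted p under 0.01, and 971 to 3170 with a library left out, the lowest without WT replicate 2 and 1764 without KO replicate 1. With RA they numbered 4291 (1894 higher, 2397 lower), 2361 at an adjusted p under 0.01, and 2180 to 4683 with a library left out, 2180 and 2775 without either Control library and 2550 without RA replicate 1. Library totals gave 979 higher and 2770 lower in KO cells, and removal of the trend on exon length 3298 higher and 1824 lower with RA and 1323 higher and 1033 lower in KO cells. KO and WT libraries share the numbers 1 and 2 and nothing else in the labels, and deviations from the means correlated at 0.283 between KO 1 and WT 1. With a replicate block the KO calls numbered 4242 and the RA minus KO difference of Fndc5 was -0.0092, and RA and Control share no number. The RA-response list had 3 to 7 calls in KO cells with a library left out and 4 at an adjusted p under 0.01, the family and partner lists 7 to 13 and 7, and the neighbours 0 to 2, 1 from the compared libraries alone and 0 at an adjusted p under 0.01. With RA the neighbours had 0 to 1 calls with a library left out and 1 by DESeq2, from the compared libraries alone and with the length trend removed. Among single neighbours that were not called, leaving out libraries turned the sign of Smg6 (-0.27 to 0.11), Lbp (-0.13 to 0.93) and Rprd1b (-0.0086 to 0.26) in KO cells and of Lbp (-0.020 to 1.69), Rprd1b (-0.014 to 0.16) and S100pbp (-0.32 to 0.13) with RA. So did removal of the length trend for Smg6 in KO cells (0.19) and Otub2 with RA (0.083), and pooled WT libraries for S100pbp with RA (0.19). The cause of these changes was not tested. Promoter windows held no repeat with other spacings of 1 to 5 bases or with AGGTCA and AGTTCA alone, and windows of 5 and 10 kb were not run, as no genome sequence was used here. Depth limits Hic1, Asb2 and Fndc5 in the Control libraries, at 0 to 5 counts.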
